A study of Mus musculus with 6 samples.

Results

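The receptors for vascular endothelial growth factor (VEGF) and their neuropilin coreceptors were examined in murine tissue around BMSCs-engineered cartilage (BEC). The 5 genes were taken by symbol from the 48440 genes of the count table: the receptor genes Flt1, Kdr and Flt4, whose kinases axitinib inhibits, and the coreceptor genes Nrp1 and Nrp2. BEC made from rabbit bone marrow cells was wrapped in an electrospun membrane of polycaprolactone and collagen and placed under the skin of male BALB/c nude mice, which lack most T cells but keep other immune cells and their own blood vessels. In the 0%-Axitinib group the membrane held no drug. For the other, named 3%-Axitinib, axitinib equal to 3% of the weight of polymer and collagen was put into the spinning solution, and the amount a membrane kept is not given here. At 12 weeks, 3 samples per group were harvested with murine tissue entangled in them. The paper describes the profiles as those of murine tissue around BEC, and reads were mapped to the mouse genome. Whether the libraries also held rabbit RNA from the BEC was not tested. Samples of the first group carry the treatment label untreated, and they were read as the 0%-Axitinib group because the treatment protocol given for them has only membranes with 0% or 3% of the drug. Each mouse received a pair of constructs of one group, and which samples shared a mouse is not given, so n counts samples and p-values measure the spread between these samples.

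VEGF ligands bind receptor tyrosine kinases that sit mainly on endothelial cells. Kdr (VEGFR-2) is the main signalling receptor of blood vessels, Flt1 (VEGFR-1) binds ligand tightly but signals weakly and has a soluble decoy form, and Flt4 (VEGFR-3) serves mainly the lymphatic vessels and sprouting capillaries. Neuropilins have no kinase of their own. They hold VEGF near its receptors, bind class 3 semaphorins as well, and are also made by many cells outside the vessels, such as macrophages, fibroblasts and neurons.

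Reads counted on genes numbered 17761968, 16716411 and 18005908 in 0%-Axitinib replicates 1, 2 and 3 and 9225518, 11686084 and 18403795 in the 3%-Axitinib replicates. The libraries differed in more than depth. Unmapped reads made up 5.47%, 3.84% and 14.9% of the 0%-Axitinib libraries and 48.4%, 29.2% and 16.8% of the 3%-Axitinib libraries, so every 3%-Axitinib library had the larger share. Levels are given in CPM, the counts scaled to a common library size with TMM factors. Of 19 skeletal muscle genes, all were detected in some sample, and their summed level was 191, 23.5 and 27.2 CPM without the drug against 17416, 28.0 and 9728 CPM with it, in the order of the replicates. Acta1, the actin of the sarcomere and the most abundant of them, was at 3913, 0.0908 and 1846 CPM with the drug, so replicates 1 and 3 of the 3%-Axitinib group were rich in muscle RNA and replicate 2 was not. Among 5 keratinocyte genes, the summed level was 886 CPM in 0%-Axitinib replicate 2 and at most 7.36 CPM elsewhere, with the keratin gene Krt1 at 272 CPM in that sample alone. The part of muscle and skin in the differences below was not tested, except where values without these libraries are given.

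Across all genes, edgeR's quasi-likelihood test was run on 15257 genes, of which 1 (0.00655%) passed an adjusted p of 0.05. This was Nr1d1, a clock gene named after its value was seen, while DESeq2's Wald test gave 1961 genes and an unadjusted p of 0.05 in edgeR gave 3585. The study's criterion, a fold change of at least 1.5 with an unadjusted p of at most 0.05, was met by 21.2% of genes. Lower genes made up 11.7% and higher genes 9.54% of those tested. With total counts in place of TMM, the median log2 fold change of all genes moved from -0.03 to -0.16, and the criterion was met by 2437 lower and 998 higher genes, against 1785 and 1456. Of the 5 genes of the family, 3 met the criterion, all lower in the 3%-Axitinib group, and these were the receptors. Their groups did not overlap, which held in the lower direction for 16.6% and in the higher direction for 14.7% of tested genes. By edgeR 0 of the 5 passed an adjusted p of 0.05 and 3 passed an unadjusted one, and limma-voom likewise gave no call at the adjusted threshold. Without 0%-Axitinib replicate 3, Flt1 and Kdr passed the adjusted threshold in edgeR, but so did 1252 of all 15690 genes tested there, 611 of them lower. The adjusted p was then 0.0379 for Flt1, 0.0467 for Kdr and 0.0802 for Flt4. With DESeq2's Wald test the adjusted p was 0.00335 for Flt1, 1.66e-04 for Kdr and 0.0122 for Flt4.

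Kdr, on chr5:75932827-75978458 (GRCm38, minus strand), is the main signalling receptor and gave 32.1, 31.8 and 56.4 CPM without the drug (replicates 1, 2 and 3) against 4.39, 11.1 and 11.3 CPM with it. The lowest 0%-Axitinib sample lay above the highest 3%-Axitinib sample by more than the spread within the latter group. The counts behind these levels ranged from 40 to 1042. The log2 fold change was -2.16 (95% interval -3.18 to -1.14), a 4.47-fold lower level, with an adjusted p of 0.0965 in edgeR's test, and 2.86% of all tested genes had a more negative value. In bulk tissue, fewer cells of a type and less RNA per cell cannot be told apart, for Kdr as for the genes that follow. Flt4, on chr11:49609263-49652739 (plus strand), was the least abundant in counts, with 8.22, 8.49 and 23.5 CPM and then 2.63, 5.09 and 3.58 CPM. Replicate 3 of the 0%-Axitinib group stood well above the other samples of its group for Flt4 and above them for Kdr, and its Flt1 was the lowest of its group. The correlation (rho) of this whole library with replicates 1 and 2 of its group was 0.891 and 0.893, against 0.978 between those replicates. The log2 fold change of Flt4 was -1.83 (95% interval -3.06 to -0.60, adjusted p = 0.121 by edgeR). It was -1.15 without 0%-Axitinib replicate 3, where the criterion was still met. With both muscle-rich libraries left out it was -1.39 and the criterion was not met, under the assumption that the lone 3%-Axitinib sample varies like the controls, while Kdr at -1.86 still met it.

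Flt1, on chr5:147561604-147726011 (minus strand), gave 44.3, 48.7 and 30.8 CPM without the drug against 16.2, 14.4 and 22.5 CPM with it. The groups stood apart, with the smallest gap of the 3 receptors relative to their level, between 30.8 and 22.5 CPM. The log2 fold change of Flt1 was -1.22 (95% interval -1.86 to -0.58, adjusted p = 0.0972 by edgeR), a 2.33-fold lower level, and -1.54 without both muscle-rich libraries, where the criterion was met.

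**Figure D1:**
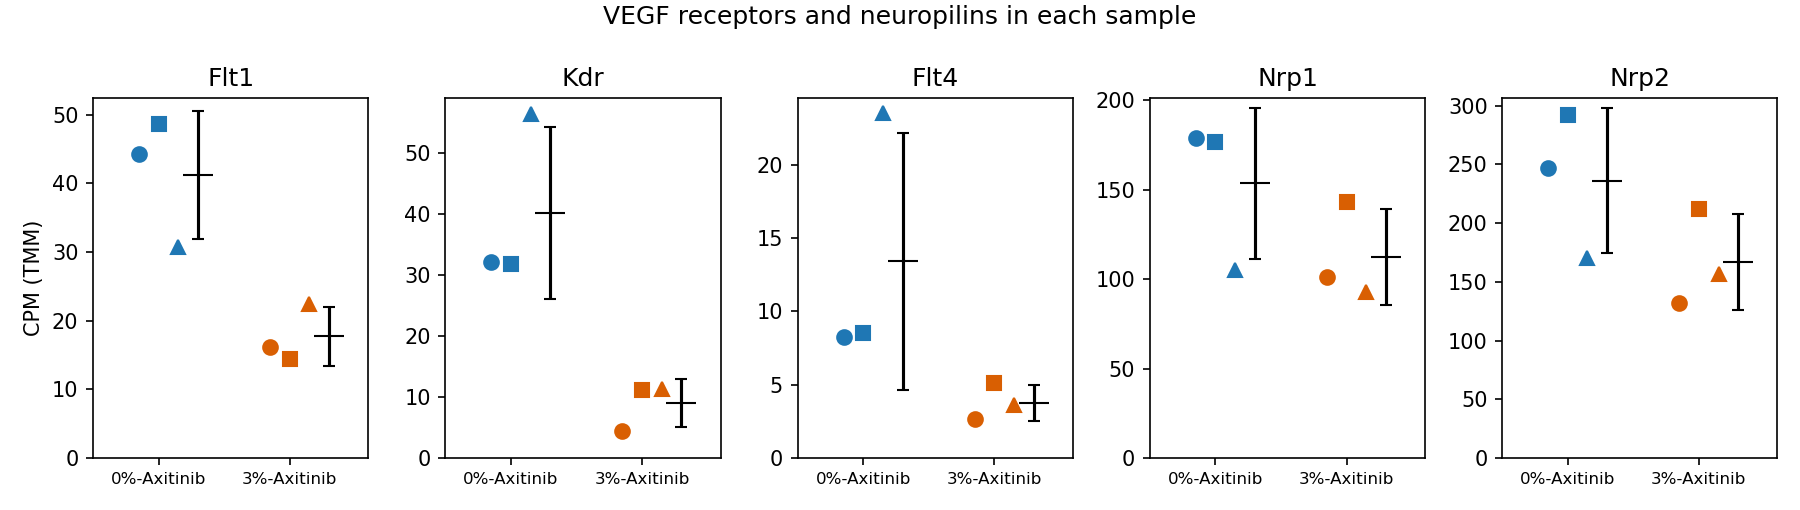
Level in CPM (vertical axis, from 0) of each receptor and coreceptor gene in the 3 samples of each group, with circles, squares and triangles for replicates 1, 2 and 3 and the mean with SD in black. Flt1, Kdr and Flt4 show no overlap, with all 3%-Axitinib points below the others, and Nrp1 and Nrp2 overlap.

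The coreceptors differed less. Nrp1 (chr8:128358604-128503363, plus strand) was at 179, 177 and 105 CPM without the drug against 101, 143 and 92.8 CPM with it. Nrp2 (chr1:62703285-62818695, plus strand) was at 247, 292 and 170 CPM and then 132, 212 and 157 CPM. For both genes the groups overlapped, because 0%-Axitinib replicate 3 lay within the range of the 3%-Axitinib samples. The log2 fold changes were -0.46 for Nrp1 (95% interval -1.14 to 0.23, adjusted p = 0.369 by edgeR) and -0.50 for Nrp2 (95% interval -1.19 to 0.19, adjusted p = 0.331). Without 0%-Axitinib replicate 3 both met the study's criterion, with log2 fold changes of -0.67 and -0.69. In that setting 2148 of all 15690 tested genes met it as lower, against 1785 of 15257 with all samples. Without both muscle-rich libraries the values were nearer to 0, at -0.13 for Nrp1 and -0.17 for Nrp2, as they were with the mean level of the muscle genes as a covariate in edgeR, at -0.27 and -0.25. Nrp1 hosts the microRNA gene Mir1903, which had 0 counts over all samples, and Nrp2 overlaps an antisense gene with 11 counts and a gene on its own strand with 14. The annotated exons of both of these shared 0 bases with those of Nrp2, while Mir1903 lies over 80 bases of Nrp1 exon. Whether the counting used strand is not given in the sources used here.

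To compare genes with each other, counts were divided by the exon length of the gene and scaled to the same total in each sample over all genes with a length (TPM). In the 0%-Axitinib group the order was Nrp2 (64.3 ± 25.1 TPM), Nrp1 (50.9 ± 20.8), Kdr (13.4 ± 1.98), Flt1 (9.82 ± 3.59) and Flt4 (4.72 ± 2.10; SD, n = 3). In the 3%-Axitinib group it was Nrp2 (38.3 ± 8.43 TPM), Nrp1 (31.2 ± 6.99), Flt1 (3.56 ± 0.802), Kdr (2.67 ± 1.11) and Flt4 (1.24 ± 0.376). The coreceptors stood above the receptors beyond the spread in both groups. The ranges of Nrp2 and Nrp1 overlapped in each group, but Nrp2 lay above Nrp1 within every sample. Among the receptors, Kdr stood clear of Flt4 in the 0%-Axitinib group and Flt1 stood clear of Flt4 in the 3%-Axitinib group, and the other pairs overlapped. With the longest transcript as length, Nrp1 came before Nrp2 (means of 107 and 88.4 TPM without the drug) and Flt1 was at 15 TPM beside 15.9 for Kdr. The summed level of the receptors was 27.5, 27.7 and 28.5 TPM without the drug against 5.73, 7.76 and 8.91 TPM with it, so the sum varied less among the 0%-Axitinib samples than its parts. In 0%-Axitinib replicate 3, Flt1 made up 20.0% of that sum, against 41.9% and 44.2% in replicates 1 and 2, and Flt4 made up 25.1% against 12.7% and 12.6%. In the 3%-Axitinib samples, Kdr made up 24.2%, 42.2% and 37.4% of the sum, below the 43.2% of the lowest 0%-Axitinib sample, but with the longest transcript as length the groups overlapped (39.3% in 3%-Axitinib replicate 2 and 38.9% in 0%-Axitinib replicate 2).

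Since receptors are carried mainly by endothelial cells, each gene was also set against 23 other endothelial genes of the same sample. Averaged over the list, log2 CPM was 5.62, 4.96 and 5.84 without the drug against 3.45, 4.33 and 4.49 with it, and summed CPM was 1762, 1121 and 1773 against 566, 859 and 886. None of these genes was at 0 in every sample. Of the 23 genes, 18 (78.3%, beside 11.7% of all tested genes) met the criterion as lower and 0 as higher. The median log2 fold change of the list was -1.47, beside -0.03 over all tested genes. Without both muscle-rich libraries the median of the list was -1.38, beside -0.13 over all tested genes. With the muscle covariate 11 of the list were lower, where lower genes over all 15257 tested numbered 892 against 1785. The junction genes Pecam1 and Cdh5, used as a second reference, were at most 81.6 and 38.6 CPM with the drug and at least 143 and 117 CPM without it. Plvap, which forms the diaphragms of fenestrated vessels and was the most abundant of the list in the mean over all samples, had a log2 fold change of -0.39 and overlapping groups. Aplnr, the apelin receptor, had the lowest log2 fold change of the list (-2.45) and Ecscr the highest (0.02).

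Relative to this list, Kdr was at -0.61, 0.03 and -0.02 on the log2 scale without the drug against -1.28, -0.84 and -0.97 with it. All 3%-Axitinib samples were below all 0%-Axitinib samples, a difference of -0.83 (p = 0.1 by a two-sided exact permutation test, which cannot go lower with 3 samples against 3, and 0.333 with Benjamini-Hochberg adjustment over the 5 comparisons). Against Pecam1 and Cdh5 alone, the difference was -0.19 and the exact p was 0.6. Flt1 and Flt4 differed from the list by less than their spread between samples, with differences of 0.17 (exact p = 0.8) and -0.28 (exact p = 0.4). The sign turned without 0%-Axitinib replicate 3, to -0.21 for Flt1 and 0.029 for Flt4, and for Flt1 also without 3%-Axitinib replicate 1, to -0.10. Against Pecam1 and Cdh5 alone, the differences were 0.81 for Flt1 (exact p = 0.2) and 0.36 for Flt4 (exact p = 0.7). Nrp1 and Nrp2 were higher relative to the list, by 0.95 and 0.89 (exact p = 0.2 each, 0.333 adjusted over the 5 comparisons), with groups that overlapped. Without 0%-Axitinib replicate 3 the differences were 0.51 and 0.49, and against Pecam1 and Cdh5 alone they were 1.59 and 1.53 (exact p = 0.1 each). How much of these values rests on the muscle content of the libraries was not tested.

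**Figure D2:**
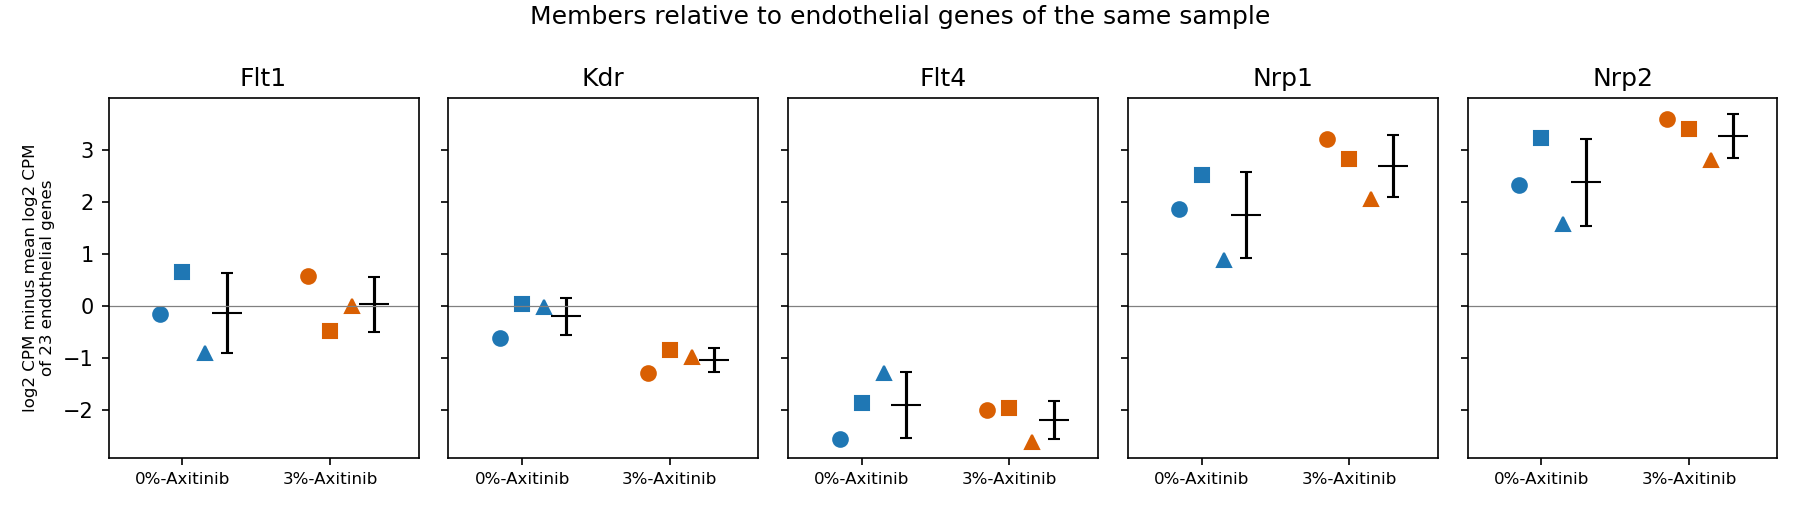
Log2 CPM of each gene minus the mean log2 CPM of 23 endothelial genes of the same sample (vertical axis), for the 3 samples of each group, with circles, squares and triangles for replicates 1, 2 and 3 and the mean with SD in black. Only Kdr has groups that do not overlap, from -1.28 to -0.84 in the 3%-Axitinib group and from -0.61 to 0.03 in the 0%-Axitinib group.

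Differences between members were tested as log2 ratios of CPM within a sample, for 10 pairs. Each of the 6 ratios of a receptor to a coreceptor was lower in every 3%-Axitinib sample (exact p = 0.1 each, the smallest possible, and 0.167 adjusted over the 10 pairs). For Flt1 to Nrp1 the groups nearly touched, at -2.01 in 0%-Axitinib replicate 1 and -2.04 in 3%-Axitinib replicate 3. The ratio of Kdr to Nrp1 was -2.47, -2.48 and -0.90 without the drug against -4.49, -3.67 and -3.02 with it, a difference of -1.78. For Flt4 to Nrp1 the difference was -1.23 and for Flt1 to Nrp1 -0.78, and the ratios to Nrp2 differed by -1.72, -1.17 and -0.72 for Kdr, Flt4 and Flt1. Without 0%-Axitinib replicate 3, Flt4 to Nrp1 differed by -0.48 and Flt4 to Nrp2 by -0.46, so that library carried most of both differences. Without 3%-Axitinib replicate 2, Flt1 to Nrp1 differed by -0.46 and Flt1 to Nrp2 by -0.40. Over all leave-one-out values, Kdr to Nrp1 lay between -2.13 and -1.25 and Kdr to Nrp2 between -2.03 and -1.23. Between receptors the groups overlapped: Flt1 to Kdr differed by 1.00 (exact p = 0.3), Kdr to Flt4 by -0.55 (exact p = 0.2) and Flt1 to Flt4 by 0.45 (exact p = 0.5), which became -0.24 without 0%-Axitinib replicate 3. Flt1 to Kdr was 0.53 without that library and 0.61 without 3%-Axitinib replicate 1, and Kdr to Flt4 was -0.33 without the latter. Nrp1 to Nrp2 differed by 0.05 (exact p = 0.7), and this ratio lay between -0.75 and -0.39 in all 6 samples.

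Among the ligands, 1 of 5 met the criterion as lower and 1 as higher (20.0% each, beside 11.7% and 9.54% of all tested genes). Vegfa, the main ligand of Kdr, was at 69.0, 65.1 and 51.9 CPM without the drug against 176, 117 and 105 CPM with it. Pgf, placental growth factor, which binds Flt1, was at 13.0, 12.4 and 34.3 CPM and then 4.93, 6.45 and 5.83 CPM. Vegfa was thus higher and Pgf lower in every 3%-Axitinib sample, and the highest Pgf value was in 0%-Axitinib replicate 3, as for Kdr and Flt4. The paper reports Vegfa in the rabbit BEC as well, and the species of the Vegfa reads was not tested. The log2 fold change of Pgf was -1.79, or 3.46-fold lower (adjusted p = 0.104 by edgeR). Like Flt4, it did not meet the criterion with the muscle covariate or without both muscle-rich libraries, where 0 ligands were lower by edgeR, and its log2 fold change was then -1.52 and -1.62. Without 0%-Axitinib replicate 3 it was -1.14 and met the criterion. Vegfb, the other ligand of Flt1, lay between 37.3 and 40.3 CPM in the 0%-Axitinib samples and between 45.3 and 58.7 CPM in the 3%-Axitinib samples, and its log2 fold change of 0.36 did not meet the criterion. It was 0.22 without 3%-Axitinib replicate 3, 0.20 without both muscle-rich libraries and 0.23 with total counts. Vegfc and Vegfd, the ligands of Flt4, had log2 fold changes of -0.36 and 0.81 with overlapping groups. Without 0%-Axitinib replicate 1 Vegfc was at -0.05, and Vegfd was at 1.26 and met the criterion. Vegfd also met the criterion with the replicate number as a block, at 0.87. Without both muscle-rich libraries Vegfd was at 0.22.

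The log2 ratio of Vegfa to Kdr joins ligand and receptor, and it was 1.10, 1.03 and -0.12 without the drug against 5.29, 3.38 and 3.21 with it. The difference was 3.29 on the log2 scale. Because Vegfa was higher and Kdr lower in every 3%-Axitinib sample, the groups of this ratio had to stand apart. The two-sided exact test therefore had to give its lowest value, p = 0.1, which adds nothing to the values of Kdr and Vegfa.

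**Figure D3:**
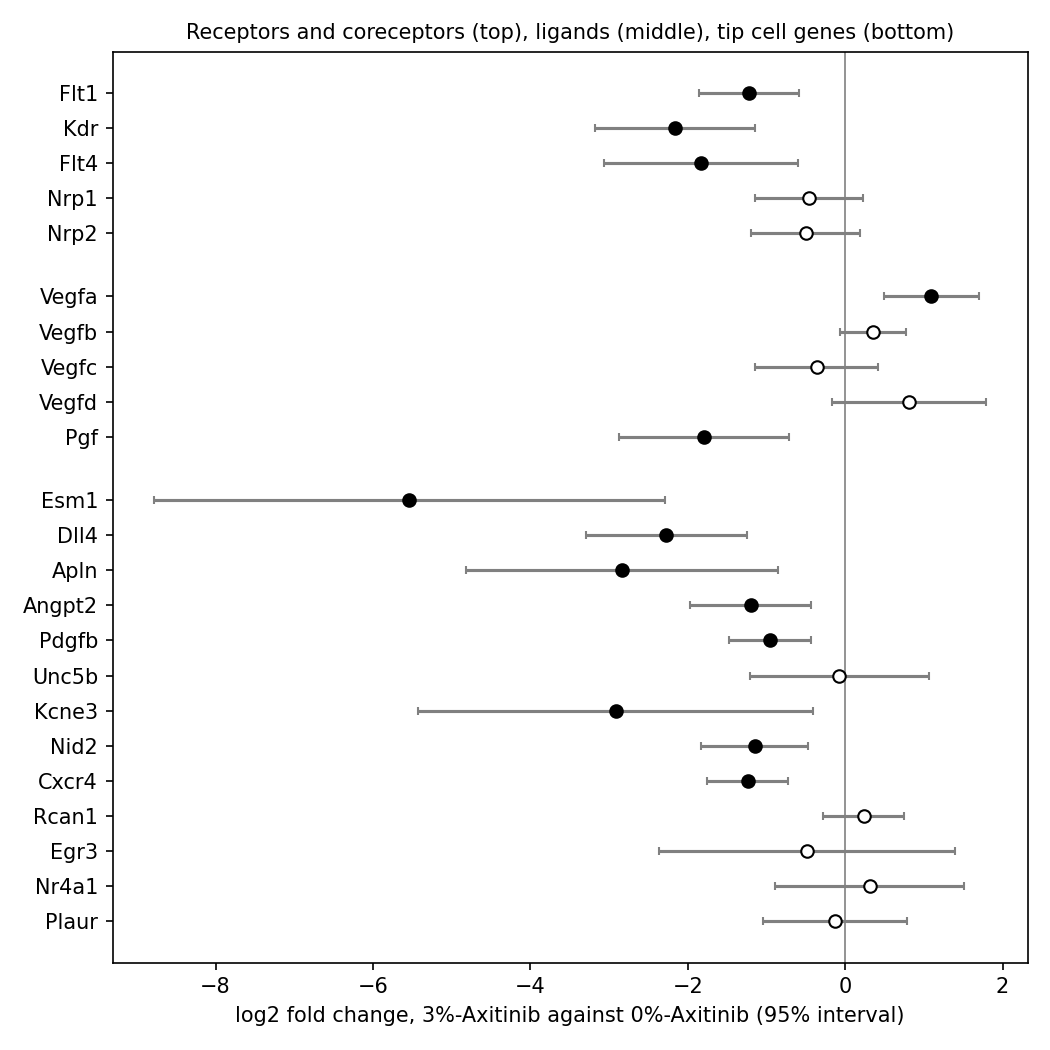
Log2 fold change of the 3%-Axitinib against the 0%-Axitinib group (horizontal axis) with its 95% interval from edgeR for the receptors and coreceptors, the ligands and 13 tip cell genes, with filled points for genes that met the study's criterion. Kdr lies at -2.16, Vegfa at 1.10 and Esm1, the lowest, at -5.54.

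Of 34 genes that relay the receptor signal, such as kinases, adaptors and small GTPases, 6 were lower and 2 higher by the criterion, with a median log2 fold change of -0.26. These are 17.6% and 5.88% of the list, near the 11.7% and 9.54% of all tested genes. With the muscle covariate 2 were lower and 1 higher, where 892 and 954 of all 15257 tested genes were. With total counts 9 were lower and 1 higher, beside 2437 and 998 of all tested genes. The medians were -0.34 and -0.38, beside -0.06 and -0.16 over all tested genes. Without both muscle-rich libraries the median was -0.40, beside -0.13 over all tested genes. The higher genes were Hspb1 and Hras, the latter named, like other members of counts of at most 5 below, after the values were seen. The small GTPase gene Cdc42, the most abundant, had a log2 fold change of -0.46. Sh2d2a, an adaptor that binds Kdr and is also made by T cells, had the lowest (-3.29), with 0.937, 2.85 and 12.8 CPM without the drug and at most 0.981 CPM with it. The small heat shock protein gene Hspb1, which muscle also expresses, had the highest (2.32). Its level was 268, 74.0 and 116 CPM with the drug and at most 42.1 CPM without it, and the highest values were in the muscle-rich libraries; the part of muscle was not tested.

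Tip cells lead a vessel sprout and respond to VEGF. Of 13 genes of this kind, 8 (61.5%, beside 11.7% of all tested genes) were lower and 0 higher by the criterion, with a median log2 fold change of -1.15. For 8 genes every 3%-Axitinib sample was below every 0%-Axitinib sample, as for 16.6% of all tested genes. Without both muscle-rich libraries the median of the list was -1.13, beside -0.13 over all tested genes. With the muscle covariate 6 of the list were lower, where lower genes over all 15257 tested numbered 892 against 1785. Esm1, a secreted proteoglycan of tip cells, was at 6.25, 8.32 and 51.3 CPM without the drug against 1.21, 0.363 and 0 CPM with it, with its highest value, like Kdr, Flt4 and Pgf, in 0%-Axitinib replicate 3. The chemokine receptor gene Cxcr4, which leukocytes also express, was the most abundant, at 168, 182 and 242 CPM and then 81.4, 90.4 and 78.7 CPM. Cxcr4 had a log2 fold change of -1.24 with an adjusted p of 0.0965 by edgeR. The immediate early gene Nr4a1 had the highest log2 fold change of the list, 0.31, and its groups overlapped.

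The semaphorins and plexins, which share the neuropilins as coreceptors, had a median log2 fold change of -0.17, and 2 of 12 genes, Sema3f and Plxnd1, were lower, or 16.7% beside 11.7% of all tested genes, and 0 higher by the criterion (1 to 3 lower with a library left out, and 1 higher without 0%-Axitinib replicate 1). With a library left out the median ran from -0.62 (without 3%-Axitinib replicate 2) to 0.016 (without 0%-Axitinib replicate 1), and with the muscle covariate it was -0.65. Plxna1, the most abundant, ranged from 68.3 to 583 CPM within the 0%-Axitinib group alone, and its log2 fold change of -1.23 did not meet the criterion. Sema3b had the highest, 0.81. Of 13 other receptor tyrosine kinases, 5 (38.5%, beside 11.7% of all tested genes) were lower and 0 higher by the criterion, with a median of -0.05. These were Kit, Flt3, Met and the angiopoietin receptor genes Tek and Tie1, of which the last pair is endothelial. With the muscle covariate 3 were lower and 2 higher, where 892 and 954 of all 15257 tested genes were. Without both muscle-rich libraries the median was -0.12, beside -0.13 over all tested genes. The median ran from -0.20 to 0.05 with a library left out. Kit, the receptor for stem cell factor on mast cells and progenitors, was at 13.1, 16.2 and 46.0 CPM without the drug against 0.987, 1.54 and 2.71 CPM with it, which gave a log2 fold change of -3.81 (adjusted p = 0.0965 by edgeR). Fgfr1, the most abundant, was higher in every 3%-Axitinib sample but did not meet the criterion (log2 fold change 0.81), and Fgfr2 had the highest log2 fold change, 1.12, with overlapping groups.

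Markers of other cell types were read in the same way to describe the tissue. Of 9 pericyte and smooth muscle genes, 4 (44.4%, beside 11.7% of all tested genes) were lower by the criterion (median -0.07). These were Kcnj8, Abcc9, Notch3 and the pericyte gene Rgs5, the last at 199, 134 and 222 CPM without the drug against 19.3, 46.0 and 54.1 CPM with it, while Cnn1 had the highest log2 fold change, 1.67. With a library left out the median ran from -0.40 to 0.49 and the count stayed at 4. The summed level of the list was 774, 402 and 537 CPM against 461, 553 and 333 CPM. Of 7 lymphatic genes, 4 passed the filter on low counts. Prox1, Ccl21a and Mmrn1, named here after their values were seen, did not, and Prox1 was at most 0.729 CPM, while Lyve1 reached 129 CPM and Pdpn 114 CPM. Mmrn1 reached 16 CPM in 0%-Axitinib replicate 3, the sample with the highest Flt4, and at most 0.756 CPM elsewhere. The summed level of the 7 lymphatic genes was 228, 160 and 53.0 CPM without the drug against 211, 122 and 207 CPM with it, and their part in the Flt4 values was not tested. Of the 4 lymphatic genes that passed the filter, 0 met the criterion by edgeR, DESeq2 or limma-voom, and 0 had an unadjusted p of at most 0.05 by edgeR, but without 0%-Axitinib replicate 1 the count was 1 lower and 1 higher of 5. The median was 0.44, 0.036 to 0.83 with a library left out and -0.57 over 6 genes without both muscle-rich libraries. Pdpn, the most abundant, had a log2 fold change of 0.72 and Lyve1 of -0.07, and both are also made by other cells.

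Macrophages are a known source of Nrp1 and Flt1. By edgeR, DESeq2 and limma-voom, 0 of 12 macrophage genes met the criterion (median -0.07 and 0 at an unadjusted p of 0.05 by edgeR, but 1 lower without 0%-Axitinib replicate 3), with log2 fold changes of 0.21 for Lyz2, the most abundant, -0.96 for Adgre1 and 0.35 for C1qb. Their summed level was 11682, 12155 and 8918 CPM without the drug against 8449, 10841 and 16900 CPM with it. Of 6 leukocyte genes, 1 (16.7%, beside 11.7% of all tested genes) was lower by the criterion (median -0.89). The count was 2 by DESeq2, 3 without 0%-Axitinib replicate 1 and 2 without 0%-Axitinib replicate 3, where the median was -0.39. Over all samples by edgeR the lower gene was Ptprc, at -1.84, while Tyrobp had the highest value, -0.26, and Laptm5, the most abundant, was at -0.50. Summed, these genes reached 2087, 2978 and 3752 CPM without the drug against 1417, 1547 and 2271 CPM with it. Of 9 fibroblast genes, 3 (33.3%, beside 9.54% of all tested genes) were higher by the criterion (median 0.87), namely Fbln1, Mfap5 and Col1a1. Col1a1 was at 30550 CPM in 3%-Axitinib replicate 2 and at most 9310 CPM in the other samples. Dpt had the lowest log2 fold change, 0.25. Without both muscle-rich libraries 1 was higher and the median was 1.33. With a library left out the median ran from 0.48 (without 0%-Axitinib replicate 3) to 1.53 (without 0%-Axitinib replicate 1), where 4 met the criterion, while 1 did without 0%-Axitinib replicate 2. The 6 adipocyte genes had a summed level of 55.5, 1.54 and 11.0 CPM in the 3%-Axitinib samples beside 54.9 to 64.0 CPM in the 0%-Axitinib samples. Their median was -1.58, and 2, Adrb3 and Lep, were lower by the criterion (33.3%, beside 11.7% of all tested genes). Without 3%-Axitinib replicate 1 all 6 met it, with a median of -3.26, and all 6 also met it by limma-voom, with the muscle covariate and without both muscle-rich libraries. Cidec, a lipid droplet gene and the most abundant of them, had a log2 fold change of -1.09, and Lep, the leptin gene, was at 0.11 CPM in 3%-Axitinib replicate 1 and 0 in replicates 2 and 3. Of 11 tested cartilage genes, 6 (54.5%, beside 9.54% of all tested genes) were higher by the criterion (median 1.34). With a library left out the count was 4 to 7 and the median ran from 0.87 (without 3%-Axitinib replicate 2) to 2.21 (without 0%-Axitinib replicate 3). Log2 fold changes over the list ran from 0.37 for Cnmd, which did not meet it, to 3.92 for the aggrecan gene Acan, and Comp, the most abundant, had 0.69. The species of these transcripts was not tested. Of 18 tested muscle genes, 16 (88.9%, beside 9.54% of all tested genes) were higher by the criterion in edgeR (median 6.77). The lowest value was 3.37, for Casq1, and the highest 8.99, for Mb. DESeq2 also gave 16 but limma-voom gave 0, leaving out 1 library gave 10 to 18, and no muscle gene had groups without overlap. Without both muscle-rich libraries 0 were higher and the median was -1.66. The keratinocyte genes Lor and Krt10, carried by 0%-Axitinib replicate 2, had log2 fold changes of -6.97 and -3.93. Both met the criterion in edgeR and neither did with DESeq2, with limma-voom or without that library.

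The genes most like each member were found by Pearson's r of log2 CPM over the 6 samples, among 11542 genes with a mean of at least 5 CPM, as a description that includes the difference between groups. Kdr was closest to Elf4 (0.995), Trmt2b (0.993) and Arap3 (0.992). Arap3, a GTPase regulator of endothelial cells, was at 93.0, 77.6 and 128 CPM without the drug against 11.7, 25.6 and 23.8 CPM with it, a log2 fold change of -2.28. Flt1 was closest to Itpripl1 (0.994), Ncoa4 (0.994) and Atxn1l (0.992). Flt4 was closest to Aph1b (0.998), Gm7694 (0.996) and Gimap4 (0.995), all of them highest in 0%-Axitinib replicate 3. Nrp1 was closest to Tbc1d8b (0.997), RP23-380L19.3 (0.992) and 3110052M02Rik (0.986), and Nrp2 to A630033H20Rik (0.994), Eogt (0.986) and Frs2 (0.985).

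Promoter sequences from RefSeq (GRCm38.p6) were found for all 5 genes, and those of Kdr and Flt1 are shown because these receptors met the criterion and sit on the same chromosome. The 250 bases before the start were searched on both strands for the core GGAA of ETS factors, a family active in endothelial cells. Capitals mark GGAA or its reverse complement TTCC, and both sequences are written 5′ to 3′ on the minus strand. The core was found 4 times in each, but 93.4% of 27025 mouse promoters hold it. The GC box GGGCGG, held by 32.9% of promoters, was found 2 times for Kdr and 3 times for Flt1, and TATAAA, held by 13% of promoters, was found 1 time for Flt1 and 0 times for Kdr. The hypoxia response core, ACGTG or GCGTG, held by 38.6% of promoters, was found 2 times for Kdr and 1 time for Flt1. The Flt1 sequence also holds TGACGTCA, the cAMP response element, found in 1.62% of promoters. A match is a description of the letters and not of a site in use. Kdr covers chr5:75978459-75978705, 247 bases after the 3 nearest the start, which lie in an annotated exon, were left out, and Flt1 covers chr5:147726012-147726261.
Kdr: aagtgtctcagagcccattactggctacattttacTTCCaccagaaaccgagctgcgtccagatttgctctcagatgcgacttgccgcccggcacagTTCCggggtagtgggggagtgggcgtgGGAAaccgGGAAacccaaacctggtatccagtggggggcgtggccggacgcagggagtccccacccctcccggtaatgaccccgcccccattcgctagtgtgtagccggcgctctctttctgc
Flt1: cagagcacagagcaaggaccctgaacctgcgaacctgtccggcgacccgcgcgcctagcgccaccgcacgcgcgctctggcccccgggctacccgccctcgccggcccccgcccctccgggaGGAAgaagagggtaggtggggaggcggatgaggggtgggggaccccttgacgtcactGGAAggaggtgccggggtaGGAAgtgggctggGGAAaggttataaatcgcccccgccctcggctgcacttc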

How the data were processed

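The authors enriched poly(A) RNA, filtered reads with fastp, mapped them with STAR 2.5.2b to mm10 (GRCm38) and deposited unnormalized read counts per gene symbol for 6 samples. The annotation release and the strand setting of counting are not given in the sources used here. Of 48444 lines, 4 held reads given to no gene and were left out of library sizes and tests. Beside the unmapped reads, these were multimapping (2.71% to 6.65% of a library), outside genes (3.17% to 6.14%) or ambiguous (3.55% to 5.74%).

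Counts were tested in R 4.3.3 with edgeR 4.0.16 (filterByExpr with minimum count 10 and minimum total 15, TMM, quasi-likelihood test, Benjamini-Hochberg adjustment over all 15257 tested genes). DESeq2 1.42.0 and limma 3.58.1 (voom) were alternatives. The tests were tried on simulated counts with known answers, and the outcome is not given here. Those counts did not copy the muscle and skin content of single libraries, so they cannot show how the tests handle it. Log2 CPM used a prior count of 2. Single values were compared by exact two-sided permutation tests over samples. Exon lengths came from the GENCODE annotation of GRCm38, which gave a length for 90.8% of genes, holding 97.6% of counts. Vegfd and Cnmd are listed in the table as Figf and Lect1. Plots used Python 3.11.15 with matplotlib 3.10.9.

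The members and the lists of genes were chosen with earlier results of these data known. Lists are described by counts and medians beside those of all tested genes, with no test of a list. Genes named in the text are the 5 members, the 5 ligands, Pecam1 and Cdh5, of each other list the most abundant gene and the tested genes with the lowest and highest log2 fold change, and the 3 genes most like each member. Genes behind counts of at most 5 were named after their values were seen. Alternatives covered normalization, test, filter, thresholds, the replicate number as a block, a muscle covariate, the prior count, the endothelial reference, gene length and leaving out each sample. Leaving out both muscle-rich libraries, the muscle covariate for the count of genes and the endothelial list without Plvap were added after seeing the data.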

Additional observations from a re-analysis of the deposited data

How the results depend on the processing

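With each sample left out, the log2 fold change lay between -1.44 and -1.09 for Flt1, -2.37 and -1.83 for Kdr, -2.09 and -1.15 for Flt4, -0.67 and -0.34 for Nrp1 and -0.71 and -0.32 for Nrp2. All 5 stayed negative under every alternative run, and Flt1 and Kdr met the study's criterion under each. Flt4 did not meet it with the muscle covariate (-1.32) or with both muscle-rich libraries left out (-1.39), and the cause was not tested.

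Calls at an adjusted p of 0.05 numbered 1961 with DESeq2's Wald test, 2 with limma-voom, 15 with no filter, 0 with the muscle covariate, 0 without both muscle-rich libraries, 0 to 1252 with each sample left out (highest without 0%-Axitinib replicate 3) and 765 at a threshold of 0.1. Genes meeting the criterion numbered 1846 with the covariate and 1166 without both muscle-rich libraries. The replicate numbers did not pair the samples (r of deviations 0.182, -0.115 and -0.174 for replicates 1, 2 and 3). With a replicate block, 2 genes passed an adjusted p of 0.05 and 2603 met the criterion, and the log2 fold change was -2.23 for Kdr and -1.22 for Flt1.

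Relative to the endothelial list, the leave-one-out range was -0.21 to 0.56 for Flt1 and -0.61 to 0.029 for Flt4, and Flt4 was at 0.36 against Pecam1 and Cdh5 alone. The range was -0.24 to 0.82 for the ratio of Flt1 to Flt4 and -0.038 (without 3%-Axitinib replicate 1) to 0.15 for that of Nrp1 to Nrp2. These 4 results therefore have no settled sign, and the cause was not tested. Kdr relative to the list lay between -1.04 and -0.19 and the ratio of Vegfa to Kdr between 2.62 and 3.66 over all alternatives. With the longest transcript as length, mean TPM without and with the drug was 15 and 5.44 for Flt1 and 107 and 65.3 for Nrp1, 15.9 for Kdr in the 0%-Axitinib group and 52.6 for Nrp2 in the 3%-Axitinib group. The exact tests of 3 samples against 3 cannot give a p below 0.1, so their p-values say nothing about stability.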
